A study of Mus musculus with 12 samples.

Results

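The paired immunoglobulin-like receptor (PIR) genes and Fcer1g, the gene of the adaptor that signals for the activating receptors among them, were followed through 12 libraries of mouse fetal liver cells. They are the 9 rows, of 23420 in the deposited gene table, that carry the symbols Pira1, Pira2, Pira4, Pira6, Pira7, Pira11, Lilra6, Lilrb3 and Fcer1g, chosen by symbol and not by value. The libraries form 4 groups of 3: PIR+ KO, PIR+ wt, PIR- KO and PIR- wt. All 4 groups are lineage-negative (Lin-) c-Kit+ cells, meaning blood progenitors that lack markers of mature cells and carry the receptor of stem cell factor, and each library was made from a tube of 100 sorted cells. KO mice lack a gene that the labels do not name, so no check of the deleted gene was possible, and wt mice are wild type. By the series title the cells are from E12.5 embryos, with PIR+ cells IL7R+ and PIR- cells IL7R-, whereas the markers field has IL7Ra+ throughout. The source field has E14.5 for replicates 1 and 2 of PIR+ KO, replicate 3 of PIR+ wt, replicates 2 and 3 of PIR- KO and replicate 1 of PIR- wt. It has E12.5 for the other libraries. This day follows the PIR sign of the markers field, which contradicts some titles. The labelled day is split unevenly between KO and wt, and its part in their differences was not tested.

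The groups used here come from the sample titles. For 6 of the 12 libraries the markers field contradicts the title on PIR, and the receptor genes follow the titles: all 8 were listed at 0 in the 6 libraries titled PIR-, and 7 of them, all but Pira6, were above 0 in the 6 titled PIR+. The labels do not say whether libraries of a group came from separate animals, so p-values measure only the spread between these libraries, which may be technical. Values are numbers of RNA molecules per gene after the authors' normalization, called normalized molecules here, and they are not divided by gene length, so levels are not compared between genes. Il7r, the gene of IL7R, was 9.7 to 20.3 in PIR+ and 16.1 to 24.4 in PIR- libraries. Its RNA was thus present in all 12 libraries, which does not measure the protein on the surface. Library sums ran from 155374 to 284648, and 1 molecule was worth an estimated 0.490 to 0.775 units. In 5 libraries, replicate 1 of PIR+ KO, replicate 3 of PIR+ wt, replicate 1 of PIR- KO and replicates 2 and 3 of PIR- wt, the alpha globin gene Hba-a1 was above 300, and results for the members are also given without these libraries where they change.

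PIR proteins are surface receptors of B cells and myeloid cells, encoded by a cluster of closely similar genes. PIR-A receptors, the products of the Pira genes, have short tails and pair with the Fc receptor gamma chain, the product of Fcer1g, whose immunoreceptor tyrosine-based activation motif (ITAM) is phosphorylated on engagement and recruits the kinase Syk. PIR-B, the product of Lilrb3, carries immunoreceptor tyrosine-based inhibition motifs (ITIMs) in its own tail, recruits the phosphatases SHP-1 and SHP-2 and counters activation, and both kinds of receptor bind class I molecules of the major histocompatibility complex.

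The receptor genes resemble each other, which bears on their values below, and the likeness is visible at their starts. RefSeq (GRCm38.p6) holds 5 of the 9 members, all on the minus strand, and has no entry in the tables used here for Pira4, Pira6, Pira7 and Pira11. Lilrb3, listed there as Pirb, lies at chr7:3712505-3720382, Pira1 at chr7:3731626-3739943, Pira2 at chr7:3836808-3845104, Lilra6 at chr7:3908277-3915571 and Fcer1g at chr1:171229572-171234349. The 250 bases upstream of the start in RefSeq's promoter table are shown for the inhibitory receptor gene, for an activating one and for the adaptor gene, because the first pair is nearly the same sequence and the third is unlike both. Lilrb3 is read from chr7:3720383-3720632, Pira1 from chr7:3739918-3740167 and Fcer1g from chr1:171234350-171234599, each 5′ to 3′ on the minus strand. The start in that table lies slightly inside the locus given above for Pira1, Pira2 and Lilra6, so their windows overlap the end of the locus. Capitals mark the letters GAGGAA or their reverse complement TTCCTC, the core that the myeloid and lymphoid factor PU.1 prefers.
Lilrb3: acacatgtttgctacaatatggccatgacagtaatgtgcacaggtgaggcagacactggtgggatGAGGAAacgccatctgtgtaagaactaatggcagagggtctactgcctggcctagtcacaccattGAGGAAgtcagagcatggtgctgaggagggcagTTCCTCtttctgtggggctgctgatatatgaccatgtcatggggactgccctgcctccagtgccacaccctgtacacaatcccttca
Pira1: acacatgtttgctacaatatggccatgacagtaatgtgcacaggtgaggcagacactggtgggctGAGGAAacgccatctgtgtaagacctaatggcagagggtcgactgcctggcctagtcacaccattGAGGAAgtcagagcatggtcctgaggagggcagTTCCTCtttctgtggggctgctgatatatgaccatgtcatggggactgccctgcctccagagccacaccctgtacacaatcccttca
Fcer1g: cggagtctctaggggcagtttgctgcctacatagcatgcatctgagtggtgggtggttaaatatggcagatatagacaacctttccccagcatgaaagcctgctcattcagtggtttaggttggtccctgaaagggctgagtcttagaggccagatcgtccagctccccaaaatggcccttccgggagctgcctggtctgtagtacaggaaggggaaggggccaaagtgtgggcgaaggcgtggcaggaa
Lilrb3 and Pira1 were identical at 245 of 250 bases (98%), and the differences, written as the base of Lilrb3, the position counted from 1 at the 5′ end of the window and the base of Pira1, were A64C, A89C, T106G, G150C and T224A. Pira1 and Pira2 had no difference over the 222 bases that their windows share. The capitalised letters occurred 3 times in the windows of Lilrb3, Pira1, Pira2 and Lilra6 and not in that of Fcer1g. Of all 32851 mouse promoter windows of this length, 23.3% held the letters at least once and 0.429% held them 3 or more times. The letters TGTGGT or ACCACA, which Runx factors prefer, were in none of the 5 windows and in 14% of all windows. A match is a description of the sequence, and the lack of one says only that these letters are not in the window. The libraries were primed at the poly(A) tail, and at that end the transcripts compared, 1 from GENCODE M21 per gene, were less alike. Other annotated ends were not compared. GENCODE M21 extends Lilrb3 to chr7:3711409, past its RefSeq end at chr7:3712505, so the likeness may depend on the end used. In the last 400 bases, Lilrb3 and Pira2 aligned over 55 columns (65.5% identical), Lilra6 and Lilrb3 over 41 (70.7%) and Lilra6 and Pira2 over 69 (66.7%). By contrast, all 351 words of 50 bases in the last 400 bases of the Pira2 transcript also occur in a GENCODE M21 transcript of Gm15922, at chr7:3731630-3739889, where RefSeq places Pira1. For Lilra6 16 of 351 such words (4.56%) occur in another gene, Gm10693. For Lilrb3 4 words (1.14%) do, in Gm47138 and 3 of them also in Letm1, and for Fcer1g none.

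Pira2 and Pira1, which encode activating receptors, were present in every PIR+ library. Pira2 was 24.1, 14.3 and 9.3 normalized molecules in PIR+ KO libraries 1 to 3, against 28.2, 35.7 and 33.1 in PIR+ wt libraries. All 3 KO libraries were below all 3 wt libraries, and the KO libraries were spread more widely. Pira1 was 12.6, 7.5 and 4.7 in PIR+ KO libraries, against 10.5, 16 and 15.5 in PIR+ wt libraries. Here replicate 1 of PIR+ KO lay above replicate 1 of PIR+ wt, so the groups overlapped. In bulk libraries such as these, fewer cells that express a gene and less RNA of it per cell cannot be told apart.

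The other activating receptor genes were low, at most an estimated 4.72 molecules in a library. Lilra6, which encodes a related receptor of the activating class, was 0.9, 0.7 and 0.8 in PIR+ KO libraries, against 1.9, 0.9 and 3.2 in PIR+ wt libraries. Pira7 ranged from 1.2 to 1.8 in PIR+ KO and from 1.2 to 2.5 in PIR+ wt libraries, and Pira4 from 0.8 to 1.6 and from 0.9 to 2.1 in the same groups. The KO and wt ranges of these 3 genes met or overlapped. Pira11 ranged from 0.4 to 0.8 in PIR+ KO and from 0.8 to 1.0 in PIR+ wt libraries, and Pira6 was listed at 0 in PIR+ KO and replicate 1 of PIR+ wt and was 0.1 in replicates 2 and 3 of PIR+ wt. These 5 genes did not reach 10 normalized molecules in 3 libraries and were not tested.

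The inhibitory receptor gene Lilrb3 was present beside the activating ones in every PIR+ library. It was 12.2, 8.8 and 6.2 in PIR+ KO libraries, against 9.5, 11.3 and 14.3 in PIR+ wt libraries. Its groups overlapped, with replicate 1 of PIR+ KO above the lower pair of wt libraries. As for all 8 receptor genes, no PIR- library of either genotype had a value above 0, so no fold is given between PIR+ and PIR- cells. That separation is what the sort selected for, and it checks the titles rather than giving a result.

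**Figure D1:**
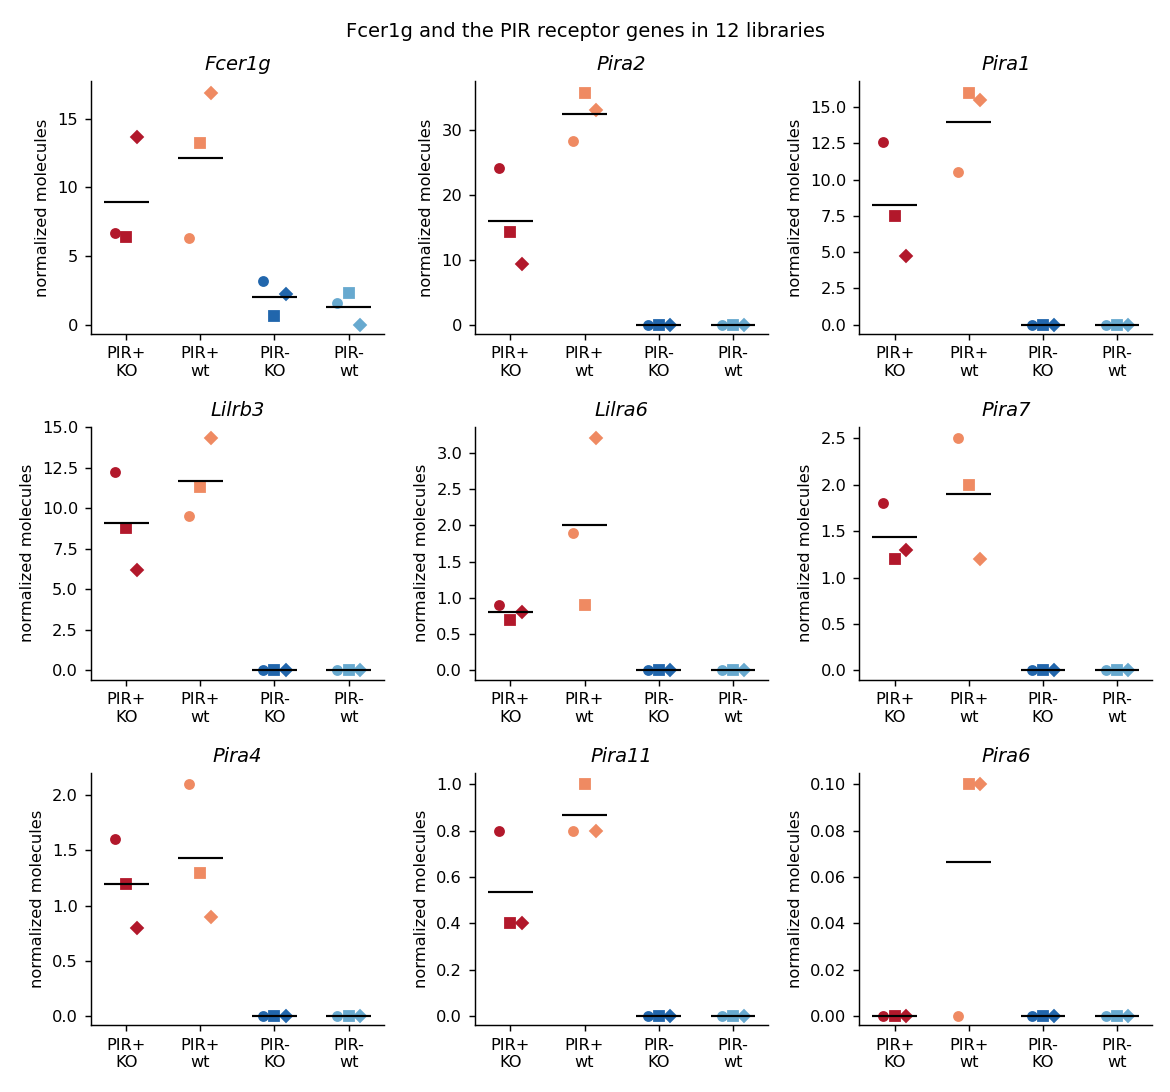
Normalized molecules (vertical axis, a scale per gene) of the 9 genes in the 4 groups; circles, squares and diamonds are replicates 1, 2 and 3, and the horizontal lines are group means. All receptor genes lie at 0 in the 6 PIR- libraries, Fcer1g reaches 3.2 there, and the 3 PIR+ KO points of Pira2 lie below the 3 PIR+ wt points.

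Values of the receptor genes were seldom whole numbers of molecules, unlike those of Fcer1g. A value of Fcer1g was a whole number of molecules, within 0.055 units, in 11 of the 11 libraries where it was above 0. The receptor genes gave a whole number in 9 of 44 values (20.5%), Pira1 and Pira2 in none of 6 each and Lilrb3 in 2 of 6. Pira6 and Pira11 together had 4 values below that of 1 molecule. How the authors assigned reads that match several genes is not given in the sources used here, so the division of molecules among the 8 receptor genes is uncertain.

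**Figure D2:**
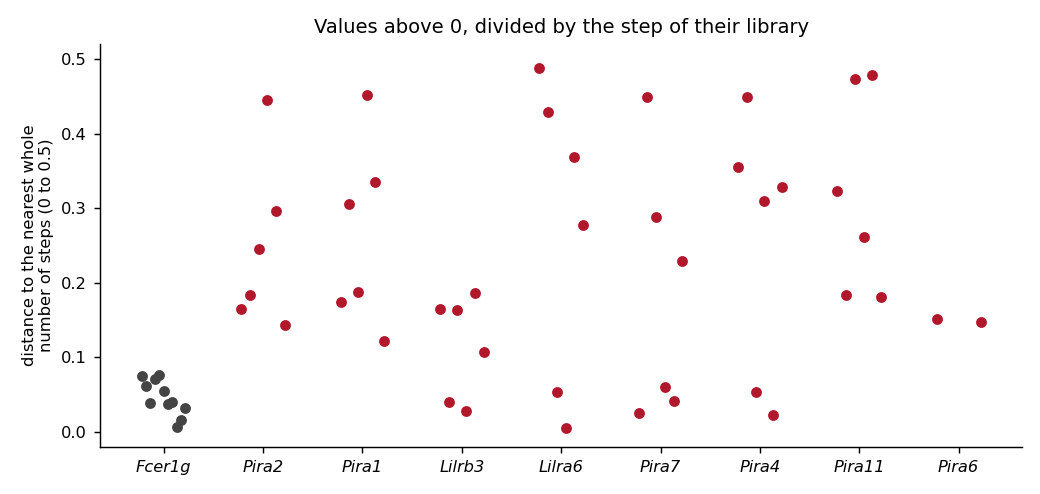
Distance of each value above 0 from the nearest whole number of molecules (vertical axis, 0 to 0.5 molecules) for the 9 genes, 1 point per library. The 11 points of Fcer1g lie near 0, and those of the 8 receptor genes are spread up to 0.5, with 9 of 44 whole within 0.055 normalized units.

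The summed value of the 8 receptor genes was lower in PIR+ KO than in PIR+ wt libraries. It was 54.0, 34.1 and 23.5 in PIR+ KO libraries, against 55.5, 68.3 and 69.1 in PIR+ wt libraries, with means of 37.2 ± 15.5 and 64.3 ± 7.63 (SD, n = 3 each) and a ratio of 0.579. The ranges did not overlap, but replicate 1 of PIR+ KO came close to the lowest wt library. After median-of-ratios scaling, which sets the median gene equal between libraries, the sums were 16.1 to 45.2 in PIR+ KO and 52.7 to 59.6 in PIR+ wt libraries. Kit, the gene of the c-Kit protein used in the sort, was at 46.1 ± 9.44 in PIR+ KO and 43.0 ± 9.40 in PIR+ wt libraries. The sums are described without a test, since the genes were chosen with results of these data known.

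The ratio of KO to wt means in PIR+ cells differed between receptor genes and did not divide the inhibitory one from all activating ones. Lilrb3 averaged 9.07 ± 3.01 in PIR+ KO and 11.7 ± 2.42 in PIR+ wt libraries, a ratio of 0.775, Pira1 averaged 8.27 ± 4.01 and 14.0 ± 3.04 in the same groups, a ratio of 0.590, and Pira2 averaged 15.9 ± 7.53 and 32.3 ± 3.81, a ratio of 0.492. Among the low activating genes the ratio was 0.837 for Pira4, 0.754 for Pira7, 0.615 for Pira11 and 0.4 for Lilra6. Within libraries, Lilrb3 divided by Pira2 was 0.506, 0.615 and 0.667 in PIR+ KO, against 0.337, 0.317 and 0.432 in PIR+ wt, so every KO ratio exceeded every wt ratio. Pira2 divided by Pira1, both activating, was apart as well, at 1.91 to 1.98 in PIR+ KO and 2.14 to 2.69 in PIR+ wt libraries. How often ratios of other genes are apart between these groups was not counted. Lilrb3 made up 24.9 ± 2.04% of the receptor sum in PIR+ KO and 18.1 ± 2.25% in PIR+ wt libraries. Pira2 made up 42.0 ± 2.53% of it in PIR+ KO and 50.3 ± 2.22% in PIR+ wt libraries, while Pira1 made up 21.8 ± 1.68% in PIR+ KO and 21.6 ± 2.37% in PIR+ wt libraries. A scaling of whole libraries leaves these ratios as they are, but a different assignment of shared reads could move them.

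**Figure D3:**
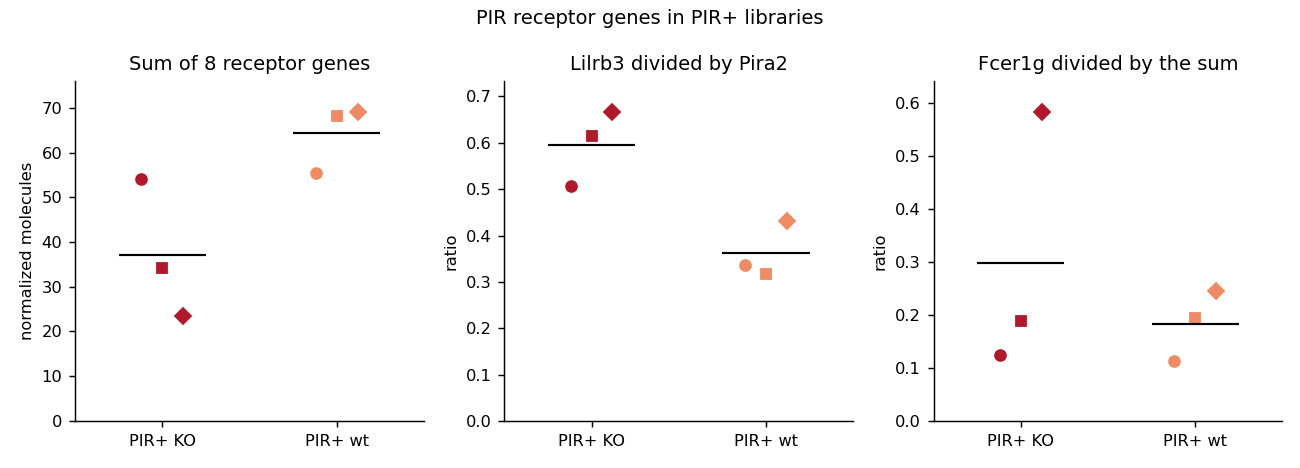
Sum of the 8 receptor genes in normalized molecules (left), Lilrb3 divided by Pira2 (middle) and Fcer1g divided by the sum (right) in the 6 PIR+ libraries; circles, squares and diamonds are replicates 1, 2 and 3, and lines are means. The KO sums of 23.5 to 54.0 lie below the wt sums of 55.5 to 69.1, the ratios of 0.506 to 0.667 lie above those of 0.317 to 0.432, and the values of Fcer1g over the sum overlap.

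Tested gene by gene, the lower receptor values in PIR+ KO cells did not pass. The test was limma on log2(value + 1) over the 4542 genes with at least 10 normalized molecules in at least 3 libraries, with p-values adjusted over all of them and 0.05 as the threshold. Of the 4542 genes, 0.903% passed between PIR+ KO and PIR+ wt cells, 0.44% higher and 0.462% lower, and none of the 4 tested members (Fcer1g, Pira1, Pira2 and Lilrb3) did. Pira2 had a log2 fold change, KO over wt, of -1.07 ± 0.45 (SE, unadjusted p = 0.0181, adjusted p = 0.515). Its groups were apart in the lower direction, which held for 3.04% of tested genes, while 8.04% were apart in the higher direction. The fold changes of Pira1 and Lilrb3 were -0.76 ± 0.53 (adjusted p = 0.917) and -0.36 ± 0.53 (adjusted p = 0.979).

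The call for Pira2 depended on the model. A fit of the 6 PIR+ libraries alone gave -1.07 ± 0.25 (adjusted p = 0.00322), and an added constant of 5 gave -0.89 ± 0.24 (adjusted p = 0.0178). The SE was 0.45 in the main fit, and why it was smaller in these 2 settings was not tested. Over all 21 alternatives its adjusted p ranged from 0.00322 to 1 and its fold change was below 0 in each. Without replicate 3 of PIR+ KO, the library with the lowest receptor sum, the fold change was -0.76 (adjusted p = 1). The authors' deposited table lists, for PIR+ wt against PIR+ KO, p = 0.00144 for Pira2, 0.0888 for Pira1, 0.373 for Lilrb3 and 0.226 for Fcer1g, with no statement of whether they were adjusted. For the low members the authors' deposited table gives p = 0.861 for Pira4, 0.599 for Pira7, 0.908 for Pira11 and 0.197 for Lilra6.

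**Figure D4:**
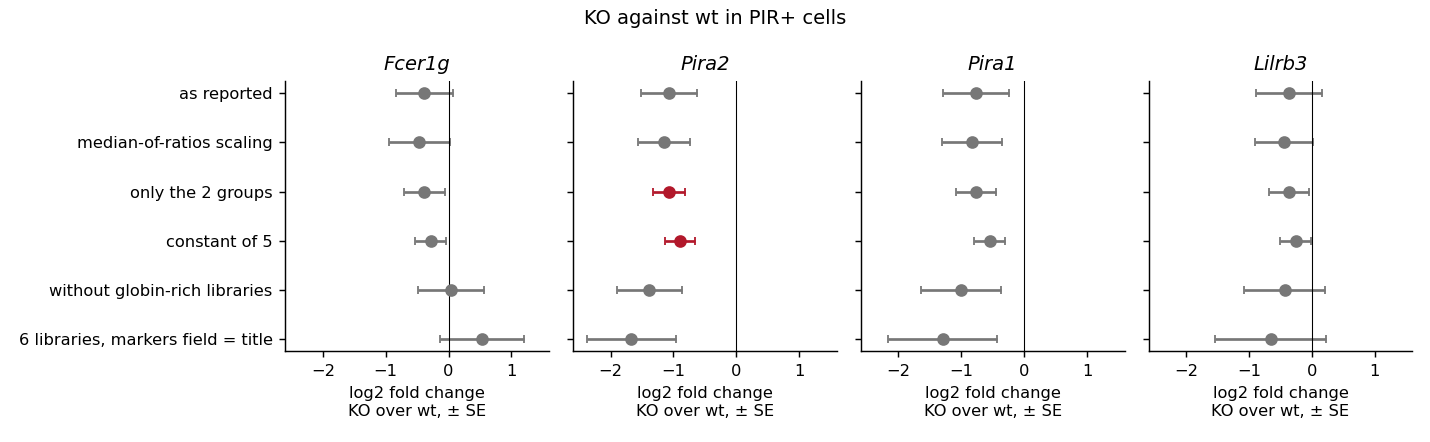
Log2 fold change, KO over wt in PIR+ cells, ± SE (horizontal axis) for Fcer1g, Pira2, Pira1 and Lilrb3 under 6 ways of fitting (rows); red points pass an adjusted p of 0.05. Pira2, Pira1 and Lilrb3 lie below 0 in every row shown, Pira2 passes in 2 of the rows, and Fcer1g changes sign without the globin-rich libraries and in the 6 libraries on which title and markers field agree in PIR sign, where PIR+ KO is replicate 3 alone.

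Fcer1g, whose product carries the ITAM for PIR-A and for several Fc receptors, was higher in PIR+ than in PIR- cells of both genotypes. In KO cells it was 6.7, 6.4 and 13.7 in PIR+ libraries, against 3.2, 0.6 and 2.2 in PIR- libraries. The groups did not overlap, and replicate 3 of PIR+ KO lay above the other KO libraries. In wt cells it was 6.3, 13.2 and 16.9 in PIR+ libraries, against 1.6, 2.3 and 0 in PIR- libraries. Again the groups did not overlap, and the PIR- library at 0 was replicate 3. Over both genotypes Fcer1g averaged 10.5 ± 4.63 in PIR+ and 1.65 ± 1.18 in PIR- libraries (SD, n = 6 each), so unlike the receptor genes it was present in 5 of the 6 PIR- libraries.

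The log2 fold change of Fcer1g, PIR+ over PIR-, was 1.76 ± 0.46 in KO cells (SE, adjusted p = 0.00210) and 2.59 ± 0.46 in wt cells (adjusted p = 2.55e-06). Of all tested genes 25.5% passed in KO cells, 22.5% higher and 2.97% lower in PIR+ cells, and 44.4% passed in wt cells, 40.6% higher and 3.72% lower, so passing here does not set Fcer1g apart. Groups without overlap, PIR+ above PIR-, were found for 35.7% of tested genes in KO and 47.6% in wt cells. The median gene was itself 0.39 higher in PIR+ cells on the log2 scale in KO and 0.51 higher in wt. After median-of-ratios scaling 15.6% of genes were called in KO cells, 8.12% higher and 7.51% lower, and 22.6% in wt cells, 11.5% higher and 11% lower. Under it the fold change of Fcer1g was 1.42 (adjusted p = 0.0442) in KO and 2.21 (adjusted p = 0.00100) in wt cells. Fcer1g reached 10 normalized molecules in PIR+ libraries only, so the filter favoured this direction, and with no filter its adjusted p was 0.0285 in KO and 0.00104 in wt cells. In KO cells the call was lost without replicate 3 of PIR+ KO (fold change 1.44, adjusted p = 0.0531) and held in the other 20 of 21 alternatives, and in wt cells it held in all 21, with adjusted p up to 0.0216. The authors' deposited table gives p = 0.000767 for Fcer1g between PIR+ wt and PIR- wt cells.

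Between genotypes Fcer1g was not called. In PIR+ cells it averaged 8.93 ± 4.13 in KO and 12.1 ± 5.38 in wt libraries (fold change -0.38 ± 0.46, adjusted p = 0.965), and in PIR- cells 2.00 ± 1.31 in KO and 1.30 ± 1.18 in wt libraries (0.44 ± 0.46, adjusted p = 0.703), a comparison in which 1.3% of tested genes passed and 1.08% were higher in KO. The difference between these effects was -0.82 ± 0.65 (adjusted p = 0.982), and 0.572% of genes passed that test. Without the globin-rich libraries the fold change was 0.03 in PIR+ cells, with 2 libraries in each group, and -0.20 in PIR- cells, where PIR- wt is 1 library. Set against the receptors, Fcer1g was 0.124, 0.188 and 0.583 of the receptor sum in PIR+ KO libraries, against 0.114, 0.193 and 0.245 in PIR+ wt libraries. Replicate 3 of PIR+ KO stood apart, with the lowest receptor sum and the highest Fcer1g of its group, and the other 5 libraries overlapped.

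Fcer1g serves receptors besides PIR-A, and 13 genes of such partners were examined. Of these, 7 were listed at 0 in all 12 libraries, among them Fcer1a and Ms4a2, the other chains of the IgE receptor, and none reached the level needed for the test. Fcgr3, a low-affinity IgG receptor that signals through Fcer1g, was at 6.7, 10.3 and 8.4 in PIR+ KO libraries, against 1.9, 3.3 and 0.7 in PIR+ wt libraries, and 0.8 or less in all PIR- libraries. Every PIR+ KO library was above every PIR+ wt library, the opposite order to Pira2. Of the 4542 tested genes 8.04% were apart in this direction, and Fcgr3 was picked after its values were seen. It reached 2 normalized molecules in all PIR+ KO libraries and otherwise only in replicate 2 of PIR+ wt. A filter at 2 therefore favoured higher values in PIR+ KO. In a fit that admitted genes from 2 normalized molecules, the log2 fold change of Fcgr3, KO over wt in PIR+ cells, was 1.76 ± 0.47 (adjusted p = 0.0643), and PIR+ over PIR- it was 3.0 ± 0.47 in KO (adjusted p = 1.73e-06) and 1.19 ± 0.47 in wt cells (adjusted p = 0.0506). Summed over the 13 partner genes, PIR+ KO libraries had 9.7 to 17.2, PIR+ wt libraries 4.0 to 4.8, PIR- KO libraries 0.5 to 1.2 and PIR- wt libraries 0 to 1.6. Fcgr3 was the largest part of the PIR+ KO sums. Clec4e was 0.6 to 3.4 in PIR+ KO and 0 to 1.3 in PIR+ wt libraries, and Fcgr1 was 0.6 to 3.0 and 0 to 2.0, so both overlapped.

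Relatives of the PIR genes were at or near 0. Of 18 symbols of the wider PIR and leukocyte immunoglobulin-like receptor family, 8 were in the table and 5 of those were at 0 throughout. Their sum was at most 2.1 in any library and Lair1, an inhibitory collagen receptor, ranged from 0 to 2.1. No gene of this list was tested.

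Among 8 genes of other ITAM-bearing and related adaptors, 3 were tested, of which 1 was higher and 2 were lower in PIR+ cells of both genotypes, beside 25.5% of all tested genes called in KO and 44.4% in wt cells. Tyrobp, which encodes DAP12, the adaptor of many myeloid and NK cell receptors, was 73.9, 75.9 and 130 in PIR+ KO libraries, against 13.8, 11.5 and 6.6 in PIR- KO libraries (log2 fold change 3.02 ± 0.29, adjusted p = 1.17e-15). In wt cells Tyrobp was 81.2, 121 and 109.1 in PIR+ libraries, against 8, 0.8 and 1.6 in PIR- libraries (4.89 ± 0.29, adjusted p = 8.73e-29). All PIR+ libraries were far above all PIR- libraries, in the direction of Fcer1g. Cd79a and Cd79b, the ITAM chains of the B-cell receptor, went the other way: Cd79b averaged 16.4 ± 4.03 in PIR+ and 99.3 ± 18.0 in PIR- libraries (n = 6 each), and its fold change was -2.48 ± 0.22 in KO and -2.59 ± 0.22 in wt cells. Cd79a was the one adaptor gene called between KO and wt in PIR+ cells, where it was 0 to 1.0 in KO and 2.7 to 8.9 in wt libraries (-2.33 ± 0.27, adjusted p = 1.61e-10). These values are low, and the fit also draws its estimate of spread from the PIR- libraries, where Cd79a was 148.8 to 266.7. Over the 21 alternatives the fold change of Cd79a ranged from -4.58 to -0.99, so its size is uncertain. Tyrobp was the one adaptor gene called in PIR- cells, higher in KO (1.69 ± 0.29, adjusted p = 2.48e-05), though the lowest KO value (6.6) lay below the highest wt value (8). With the PIR- libraries alone (adjusted p = 0.132) or with no filter (adjusted p = 0.0954) Tyrobp was not called there. Without the globin-rich libraries PIR- wt is the single library 1, whose Tyrobp was the highest of its group, and the fold change was 0.12 (adjusted p = 0.894).

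Downstream of the ITAM, 9 of 19 genes of the signalling chain were tested, and 5 were higher and 1 lower in PIR+ cells of either genotype, with a median log2 fold change of 0.92 in KO and 0.74 in wt cells, against 0.39 and 0.51 over all tested genes. Of all tested genes 22.5% were higher and 2.97% lower in KO, and 40.6% higher and 3.72% lower in wt cells. The higher ones were Lyn, a Src-family kinase, Plcg2, phospholipase C gamma 2, the linker Grb2, the exchange factor Vav1 and the scaffold Lcp2 (SLP-76). Lyn had a fold change of 1.45 ± 0.28 in KO and 0.98 ± 0.28 in wt cells, Plcg2 of 0.96 ± 0.22 and 1.45 ± 0.22, and Vav1 of 1.23 ± 0.28 and 0.74 ± 0.28. After scaling neither Lyn (0.50, adjusted p = 0.160) nor Vav1 (0.25, adjusted p = 0.527) was called in wt cells. Vav1 was also not called there without replicate 2 (0.67, adjusted p = 0.0922) or 3 of PIR+ wt (0.75, adjusted p = 0.0631) or replicate 3 of PIR- wt (0.51, adjusted p = 0.148). The lower one was Blnk, the B-cell linker, at 0 to 1.2 in PIR+ KO and 31.2 to 62.5 in PIR- KO libraries (-4.89 ± 0.36). Lcp2 was 15.8, 10.3 and 15.2 in PIR+ KO libraries, against 0.5, 1.7 and 2.2 in PIR- KO libraries (2.63 ± 0.48, adjusted p = 8.05e-06). Only the PIR+ KO libraries brought Lcp2 to the 10 normalized molecules of the filter. The filter therefore favoured higher values of Lcp2 in PIR+ KO cells, and the count of 5 higher genes includes it. In wt cells Lcp2 was 3.2, 5.9 and 4.7 in PIR+ libraries, against 1.1, 0.8 and 0 in PIR- libraries (1.82 ± 0.48, adjusted p = 0.00169). Without the globin-rich libraries, with PIR- wt replicate 1 as the only library of its group, it was 1.36 (adjusted p = 0.144). Syk, the kinase that binds the phosphorylated ITAM, was present in every library. It was 23.6 to 34.2 in PIR+ KO and 34.6 to 48.5 in PIR- KO libraries (-0.50 ± 0.22, adjusted p = 0.0855), and after scaling it was called lower in PIR+ KO cells (-0.89, adjusted p = 0.000206). Scaling left 5 higher and 3 lower genes of the chain in KO cells and 3 higher and 2 lower in wt cells.

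None of the 9 was called between KO and wt in either subset. In PIR+ cells the KO values of Lcp2 all exceeded the wt values given above (fold change, KO over wt, 1.41 ± 0.48, adjusted p = 0.241). Lcp2 reached 10 normalized molecules in the 3 PIR+ KO libraries only, so the filter favoured this direction. It passed with the 6 PIR+ libraries alone (adjusted p = 0.00479) and with an added constant of 5 (0.96, adjusted p = 0.0101), the same 2 settings in which Pira2 passed in the opposite direction, and its adjusted p reached 0.858 over all alternatives.

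Of 7 effectors of the inhibitory motif 5 were tested, and 2 were higher in PIR+ cells of both genotypes (median fold change of the 5, 0.64 in KO and 0.55 in wt cells on the log2 scale). This count is close to the 40.6% of all tested genes that were higher in wt cells, and 22.5% were higher in KO cells. Ptpn6, which encodes SHP-1, was 46.7, 50.4 and 70.7 in PIR+ KO libraries, against 11.1, 19 and 14.7 in PIR- KO libraries (1.84 ± 0.24, adjusted p = 8.88e-10). In wt cells Ptpn6 was 53.9, 71.7 and 71.2 in PIR+ libraries, against 8.5, 10.1 and 18.6 in PIR- libraries (2.37 ± 0.24, adjusted p = 2.02e-14). Dok2, a docking protein that dampens tyrosine kinase signals, averaged 58.5 ± 11.3 in PIR+ KO and 9.67 ± 0.702 in PIR- KO libraries (2.46 ± 0.26), and 52.6 ± 5.31 in PIR+ wt and 3.23 ± 0.611 in PIR- wt libraries (3.67 ± 0.26). Both genes passed under all 21 alternatives in both genotypes. Ptpn11, which encodes SHP-2, had fold changes of 0.64 ± 0.28 in KO (adjusted p = 0.0717) and 0.55 ± 0.28 in wt cells (adjusted p = 0.0926). It was called without replicate 3 of PIR- KO (0.77, adjusted p = 0.0439), without replicate 3 of PIR- wt (0.76, adjusted p = 0.0322) and with a replicate block (adjusted p = 0.0260 in KO and 0.0408 in wt cells). Csk and Inpp5d were not called between PIR+ and PIR- cells, except that scaling called Csk (-0.34, adjusted p = 0.0347) and Inpp5d (-0.78, adjusted p = 0.000945) lower in PIR+ wt cells. In PIR- cells Dok2 was higher in KO than in wt libraries (1.34 ± 0.26, adjusted p = 0.000232), and with those 6 libraries alone it was not called (adjusted p = 0.0647).

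**Figure D5:**
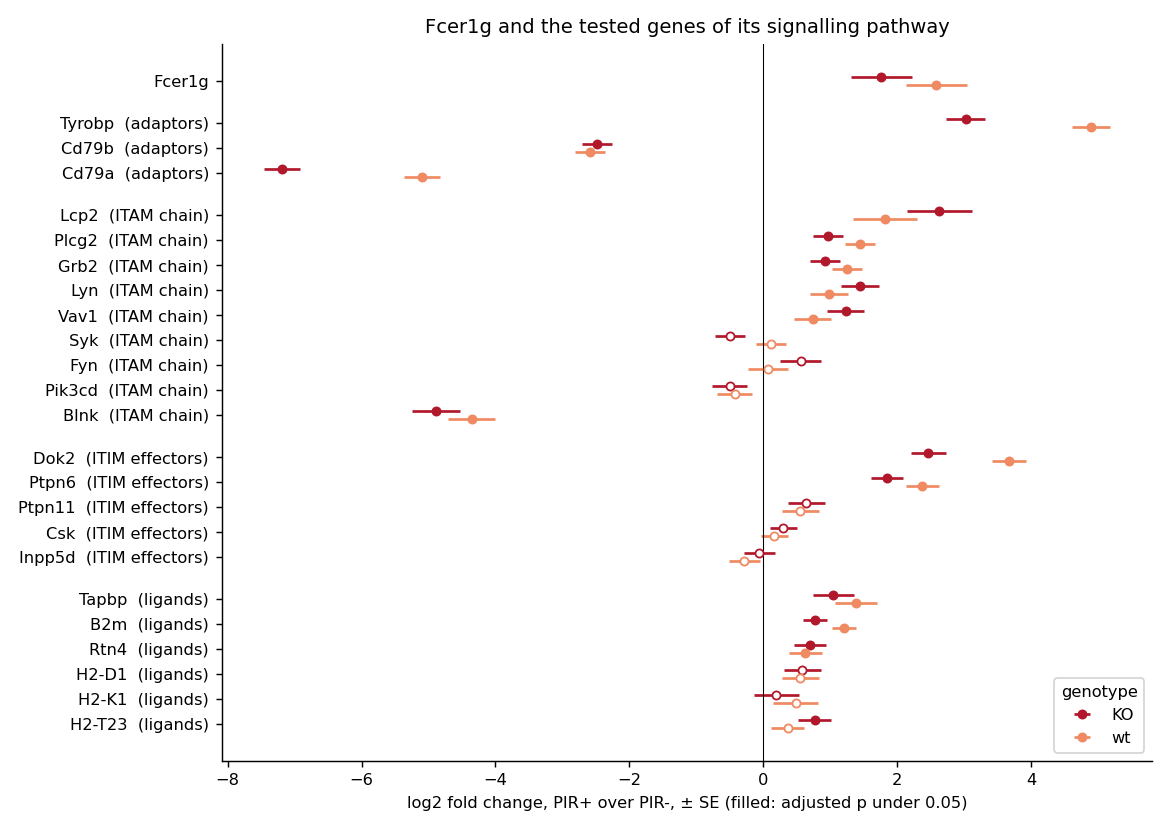
Log2 fold change, PIR+ over PIR-, ± SE (horizontal axis) of Fcer1g and of the tested genes of its adaptor relatives, the ITAM chain, the ITIM effectors and the receptor ligands (rows), in KO (dark red) and wt cells (orange); filled points pass an adjusted p of 0.05. Tyrobp, Dok2 and Ptpn6 lie to the right with Fcer1g, and Cd79a, Cd79b and Blnk lie to the left.

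Ligands of the receptors were measured in the same cells. Of 14 genes of class I molecules, of their assembly and of other PIR-B ligands, 6 were tested. B2m, the shared light chain of class I molecules, was 173.9, 171.9 and 200.8 in PIR+ KO libraries, against 101.2, 95.1 and 122 in PIR- KO libraries (0.78 ± 0.18, adjusted p = 0.000428). In wt cells B2m was 155.5, 157.2 and 180.3 in PIR+ libraries, against 72.6, 65.1 and 73.7 in PIR- libraries (1.21 ± 0.18, adjusted p = 2.46e-08). It was called in both genotypes under all 21 alternatives, with 0.38 and 0.70 left after scaling in KO and wt cells. Over the list the median fold change was 0.73 in KO and 0.59 in wt cells on the log2 scale. Of the 6, 4 were higher in KO cells (B2m, H2-T23, Rtn4 and Tapbp) and 3 in wt cells (B2m, Rtn4 and Tapbp), which scaling reduced to 1 and 2, beside 22.5% of all tested genes higher in KO and 40.6% in wt cells, and none was called between KO and wt in either subset. Rtn4, which encodes the ligand Nogo, had a fold change of 0.69 ± 0.24 in KO cells and 0.63 ± 0.24 in wt cells, against 0.39 and 0.51 for the median gene, and passed in 17 and 13 of 21 alternatives. It was lost in wt cells without any one replicate of PIR+ wt or replicate 1 or 2 of PIR- wt, with adjusted p of 0.0501 to 0.108, and in KO cells without replicate 3 of PIR+ KO (0.52, adjusted p = 0.181) or replicate 2 of PIR- KO (0.69, adjusted p = 0.0681). Tapbp, a class I loading factor, was lost in KO cells without replicate 3 of PIR+ KO (0.80, adjusted p = 0.112) or replicate 1 of PIR- KO (0.73, adjusted p = 0.127). H2-T23, a class Ib gene, was lost there without replicate 1 or 3 of PIR+ KO or replicate 1 or 2 of PIR- KO, with adjusted p of 0.0595 to 0.126.

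Markers of other cell types were followed beside these genes, and their part in the values above was not tested. Of 15 myeloid markers 14 were in the table, 2 of them at 0 throughout, and their summed level was 95.4 to 159.6 in PIR+ KO, 109.6 to 146.3 in PIR+ wt, 31.1 to 60.1 in PIR- KO and 11.7 to 27.7 in PIR- wt libraries. The 3 that were tested (Mpo, Prtn3 and Csf1r) were higher in PIR+ cells of both genotypes, beside 22.5% of all tested genes in KO and 40.6% in wt cells. Scaling left 1 of them in KO cells. Mpo and Csf1r were also higher in KO than in wt PIR- cells, as were 1.08% of all tested genes. Mpo was 13.2 to 29.4 in PIR- KO and 3.1 to 12.7 in PIR- wt libraries, and Csf1r was 3.7 to 7.5 and 0 to 1.1 in the same groups. Without the globin-rich libraries, where PIR- wt is replicate 1 alone, neither was called there (fold changes of 0.60 for Mpo and 1.59 for Csf1r). Prtn3 was not called in KO cells without replicate 3 of PIR+ KO (0.94, adjusted p = 0.127) or replicate 3 of PIR- KO (0.72, adjusted p = 0.131). Of 8 mast cell and basophil markers, 6 were at 0 in all libraries, and the rest of that sum, 35.5 to 65.4 in PIR+ and 18.6 to 34.5 in PIR- libraries, was Kit and Cpa3. B lineage markers, whose cells carry PIR when mature, summed to 12.8 to 25.2 in PIR+ KO, 25 to 36.1 in PIR+ wt, 644 to 985.9 in PIR- KO and 765.7 to 1038.4 in PIR- wt libraries, and all 7 that were tested were lower in PIR+ cells. Cd79a and Vpreb3 were also lower in KO than in wt PIR+ cells, Vpreb3 in 8 of 21 alternatives. The values of Vpreb3 were 1.2, 0 and 0 in PIR+ KO and 4.4, 0.7 and 1.4 in PIR+ wt libraries, so its groups overlapped at a low level. Vpreb3 was lost without replicate 2 or 3 of PIR+ KO, replicate 1 of PIR+ wt, any replicate of PIR- KO or replicate 1 of PIR- wt, with adjusted p of 0.0567 to 0.911. NK and innate lymphoid markers summed to 6.9 to 22.1 in PIR+ KO, 9.4 to 15.7 in PIR+ wt, 1.6 to 3.6 in PIR- KO and 0 to 1.0 in PIR- wt libraries. Platelet and megakaryocyte markers summed to 9.6 to 15.3 in PIR+ KO, 3.1 to 15.1 in PIR+ wt, 0 to 1.7 in PIR- KO and 1.6 to 5.6 in PIR- wt libraries. Hepatocyte markers summed to 6.4 to 22.4 in PIR+ KO, 5.7 to 13.8 in PIR+ wt, 11.7 to 18.1 in PIR- KO and 10.8 to 61 in PIR- wt libraries. Erythroid markers summed to 21.1 to 1581.3 in PIR+ KO and 22.5 to 615.6 in PIR+ wt libraries. In PIR- libraries they summed to 30 to 1004.1 in KO and 139.5 to 1101.1 in wt. Both tested ones, the alpha globins Hba-a1 and Hba-a2, were called lower in PIR+ than in PIR- wt cells, but their groups overlapped. Hba-a1 was 12.4, 8.2 and 359.6 in PIR+ wt and 62.6, 481.4 and 604.1 in PIR- wt libraries. With no filter neither was called there (adjusted p = 0.142 for Hba-a1 and 0.0998 for Hba-a2). Both were also called lower in KO than in wt PIR- cells, again with overlap, in 12 (Hba-a1) and 13 (Hba-a2) of 21 alternatives.

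The genes most like the members over the 12 libraries were picked by Pearson's r of log2(value + 1), as a description, since all 12 points share their libraries and the contrast between PIR+ and PIR- cells. Nearest to Fcer1g were Slc29a3, a lysosomal nucleoside transporter gene (r = 0.964), Apbb1ip, an adhesion adaptor gene (0.961), Dad1 (0.945), Ssbp3 (0.944) and Lax1 (0.943). Slc29a3 was 10.3 to 14.9 in PIR+ and 1.6 to 5.3 in PIR- libraries, a separation without overlap like that of Fcer1g. Nearest to Pira2 outside the members were Stc1 (r = 0.979), Scp2 (0.971), Nrgn (0.970), Rtp4 (0.969) and Tes (0.968). Stc1, which encodes the hormone stanniocalcin 1, averaged 17.4 ± 0.265 in PIR+ KO and 18.7 ± 4.66 in PIR+ wt libraries (SD, n = 3 each) and was, like the receptor genes, listed at 0 in all PIR- libraries. Nrgn, the calmodulin-binding protein neurogranin, was 26.4 to 29.4 in PIR+ KO, 62.2 to 76.6 in PIR+ wt and 1.5 to 5.9 in PIR- libraries. Of these 10 genes Nrgn was the one called between KO and wt in PIR+ cells (fold change -1.31 ± 0.30, adjusted p = 0.00446), a call lost without replicate 2 (-1.26, adjusted p = 0.0668) or replicate 3 of PIR+ wt (-1.26, adjusted p = 0.0626). Among the members, r was 0.999 for Pira1 with Pira2, 0.995 for Lilrb3 with Pira1 and 0.994 for Lilrb3 with Pira2, pairs that share the contrast set by the sort.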

How the data were processed

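RNA was measured in 12 libraries of 100 sorted fetal liver cells, 3 per group, with groups taken from the titles. Per the labels' protocols, ERCC spike-in RNA was added for normalization, an oligo-dT primer carried a molecular barcode, and template switching and PCR followed. TopHat2, DESeq2 and the build mm10 are named per the submitters' processing notes, without versions. The deposited values (a signal: normalized molecule numbers with 1 decimal) were used as they stand. Between 93.0% and 94.2% of values under 15 in a library were whole multiples of 1 step within 0.055, and the sum divided by the step, an estimate of molecules, was 208195 to 442533 per library. Besides, 2 columns hold the authors' p-values.

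limma 3.58.1 (R 4.3.3) with a trended prior was fitted to log2(value + 1) with 4 group means, for 4542 genes of at least 10 in at least 3 libraries, and p-values were adjusted by Benjamini-Hochberg within each comparison. The added 1 understates changes of low genes. The fit was tested on 10 simulated sets with 200 changed genes. Alternatives were median-of-ratios scaling, constants of 0.1 and 5, a filter at 2, no filter, the compared groups alone, a replicate block, the 6 libraries on which title and markers field agree in PIR sign, leaving out the 5 libraries with Hba-a1 above 300, and leaving out each library. The members and all gene lists were chosen with earlier results of these data known. Named were all members, up to 5 called genes per list, comparison and direction, list genes averaging at least 10 in a group, and the 5 genes most correlated with Fcer1g and with Pira2. Fcgr3 and Lair1 fall outside this rule and were described after their values were seen. RefSeq promoter windows of GRCm38.p6 and the ends of 1 GENCODE M21 transcript per gene were aligned with Biopython 1.88, and plots made in Python 3.11.15 with matplotlib 3.10.9.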

Additional observations from a re-analysis of the deposited data

Results flagged for a closer look

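Cd79a, Mpo, Tyrobp, Nrgn and Csf1r, none of them a PIR receptor gene or Fcer1g, are listed because the effect of KO differed between PIR+ and PIR- cells by the interaction test of limma. The log2 difference, the KO effect in PIR+ minus that in PIR- cells, was -2.09 for Cd79a (adjusted p = 0.000397), -1.95 for Mpo (adjusted p = 0.00109), -1.87 for Tyrobp (adjusted p = 0.00609), -1.80 for Nrgn (adjusted p = 0.0108) and -1.89 for Csf1r (adjusted p = 0.0419). Tyrobp, the adaptor gene closest in role to Fcer1g, had a KO effect of -0.18 ± 0.29 in PIR+ and 1.69 ± 0.29 in PIR- cells. Its PIR- KO libraries were at 13.8, 11.5 and 6.6, against 8, 0.8 and 1.6 in PIR- wt libraries. Without the globin-rich libraries, where PIR- wt is replicate 1 alone, the difference for Tyrobp was -0.11 (adjusted p = 0.998), and in the 6 libraries on which title and markers field agree in PIR sign, where PIR+ KO and PIR- wt are 1 library each, it was 0.27 (adjusted p = 1). Mpo gave -0.70 and -0.47 in these settings, which hold the same single libraries (adjusted p = 0.998 and 1). Nrgn was not called with no filter (-1.80, adjusted p = 0.139), nor without replicate 2 of PIR+ wt (-1.75, adjusted p = 0.0693), replicate 3 of PIR+ wt (-1.75, adjusted p = 0.0601) or replicate 3 of PIR- KO (-1.53, adjusted p = 0.0800). Csf1r was called in 5 of 20 alternatives. It was lost without replicate 1 or 2 of PIR+ KO, any replicate of PIR+ wt, replicate 1 or 2 of PIR- KO or replicate 3 of PIR- wt, with adjusted p of 0.0693 to 0.307. Cd79a was called in 18 of 20, and was lost with no filter (-2.09, adjusted p = 0.128) and with a constant of 5 (-0.75, adjusted p = 0.469). Groups of 3 libraries were too small to look for single outlying values.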

How the results depend on the processing

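The call of Fcer1g between PIR+ and PIR- cells kept its direction under all 21 alternatives in both genotypes. With single libraries left out its fold change was 1.36 to 2.06 in KO and 2.07 to 2.96 in wt cells. Between KO and wt it changed sign in the 6 libraries on which title and markers field agree (0.53 in PIR+, -0.20 in PIR-, difference 0.73), where PIR+ KO is replicate 3 alone and PIR- wt replicate 1 alone, and without globin-rich libraries (0.035, -0.20 and 0.24), where PIR- wt is replicate 1 alone, and without replicate 3 of PIR- wt (-0.075 in PIR-). A lone library is assumed to vary like the other groups. With single libraries left out these were -0.76 to -0.11 in PIR+, -0.07 to 0.84 in PIR- and -1.22 to -0.31 for the difference, and Pira2, Pira1 and Lilrb3 in PIR+ gave -1.40 to -0.76, -1.09 to -0.46 and -0.58 to -0.14. Pira2 passed with a constant of 5 (-0.89) and with the 2 groups alone (-1.07). The receptor sum of PIR+ wt was 55.4 after scaling, against 64.3. The genes called between PIR+ and PIR- cells of KO numbered 1158, 710 after scaling, 576 without globin-rich libraries and 662 to 1418 with single libraries left out. In wt they numbered 2015, 1025 after scaling, 1053 with matching markers, 700 without globin-rich libraries and 1320 to 2083. Between KO and wt in PIR+ they numbered 41, 27 without globin-rich libraries and 28 to 46, and in PIR- 59, 31 with no filter, 28 with the 2 groups alone, 105 with matching markers, 35 without globin-rich libraries and 33 to 88. The interaction called 26, 3 with no filter, 10 with matching markers, 6 without globin-rich libraries and 15 to 33. The cause of these shifts was not tested.

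Libraries of different groups share replicate numbers, and correlations of same-numbered deviations ran from -0.103 to 0.163. The libraries were therefore treated as unpaired, although such correlations cannot exclude a shared litter or batch. A replicate block called 62 genes between KO and wt in PIR+ and 209 in PIR-, against 41 and 59 without it, and changed no call of a member. Depth limits the 5 low members, whose values were at most an estimated 4.72 molecules. The receptor genes give no KO against wt value in PIR- cells, where all are at 0.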
